A study of Mus musculus with 136 samples.

Results

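The 38 genes described here are imprinted genes of the mouse: genes for which the copy inherited from a single parent is, in all tissues or in some, the more active copy. They were taken by name from 47643 genes in a table of molecule counts, of which 31635 had at least 1 count. All 38 were found, 32 by the symbol given in the deposit and 6 non-coding RNA genes (H19, Meg3, Rian, Mirg, Kcnq1ot1 and Airn) through the gene names of GENCODE M21. From textbook knowledge, 10 members are read from the maternal allele, 18 from the paternal allele, and for a further 10 the imprint is restricted to certain tissues or transcripts. The counts do not separate the parental alleles, and both parents belonged to the same inbred strain, so every value below is the sum over both alleles.

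RNA was measured by 3′ end sequencing in 66 NOD concepti at E8.5, separately for the embryo and its visceral yolk sac. NOD females become diabetic spontaneously, and dams with high blood glucose were mated to normoglycemic NOD males; the labels give 105 to 164 mg/dl for normal dams and 423 to 595 mg/dl for diabetic dams, save 1 diabetic litter whose reading is only stated to exceed that range. The group with 5–6 somite pairs had 17 normal concepti (10 litters) and 17 diabetic concepti (9 litters), and that with 7–9 somite pairs 16 normal (7 litters) and 16 diabetic ones (6 litters), of which litter D24M15 gave 7. Over both stages there were 10 normal and 12 diabetic litters. All 7 later normal litters also gave earlier concepti, whereas of the 6 later diabetic litters only D24M15, D28M23 and D28M36 did. The main fits had no litter term, so stages were compared partly between dams, more so in diabetic pregnancies. Littermates share a dam and are not independent pregnancies, and the labels name no drug and no engineered allele in any group.

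Genomic imprinting is set by DNA methylation laid down in the germ line at control regions, each of which acts on a cluster of neighbouring genes. Within a cluster, a control region typically keeps a non-coding RNA active on a single parental chromosome and protein-coding neighbours active on the other. Many imprinted genes act on fetal growth and on the extraembryonic membranes, and the visceral yolk sac, an epithelium of visceral endoderm over mesoderm with blood islands, feeds the embryo before the placenta takes over.

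The 132 libraries used held 1017901 to 5658850 counts, with group medians between 2115652 and 2695660. Levels are normalized counts, that is, counts divided by a DESeq2 size factor of the library over all 132 libraries, and since each molecule gives 1 tag they are not scaled by gene length. The tissues carried their labels: all 10 visceral endoderm markers were higher in yolk sacs, where their summed level was 10372 to 53508 against 96.3 to 3362 in embryos, and all 8 markers of the embryo proper were lower there, at 3.61 to 75.6 against 745 to 1729. Trophoblast markers summed to 28.5 to 1773 in yolk sacs, with Prl3d1, the gene of a placental lactogen, at 0 in every embryo and in 15 or more yolk sacs of each group. Markers of the decidua, a maternal tissue, summed to 19.7 to 66.4 in embryos. In yolk sacs with 5–6 somite pairs their sum reached 72.4 in normal and 416 in diabetic pregnancies (means 30.5 and 72.9). With 7–9 somite pairs it reached 99.2 and 793 (means 46.6 and 127). The part of decidua in the levels of members was not tested. The conceptus D28M36C, of the later diabetic group, stood apart: among the 16 libraries of its group its embryo was the highest for 5 members and the lowest for 2, and its yolk sac the highest for 13 and the lowest for 10.

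Between the tissues, 17 members were higher in yolk sacs and 14 lower at 5–6 somite pairs, of 37 tested (edgeR quasi-likelihood test, Benjamini-Hochberg adjusted p under 0.05). At 7–9 somite pairs the counts were 17 higher and 14 lower of 36, and 29 members had the same direction at both stages, 16 of them higher and 13 lower. Of all genes tested, 79.3% were called at the earlier stage (38.5% higher, 40.7% lower) and 81.1% at the later stage (39.1% higher, 42% lower), so a call between these tissues was as common among genes at large. By allele, 8 of the 10 maternally expressed members were higher in yolk sacs at each stage and 1 was lower, with a median log2 fold change of 0.99 and 0.89. Neighbours are not independent, since Meg3, Rian and Mirg of these 8 share a domain, as do Cdkn1c and Phlda2. An effect of the allele was not tested. Of the 17 paternally expressed members tested, 6 were higher and 8 lower with 5–6 somite pairs and 7 higher and 9 lower with 7–9, with a median of -0.26 at both. The median over all genes was -0.02 and -0.03. In bulk tissue, fewer cells of a type and less RNA per cell cannot be told apart.

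**Figure D1:**
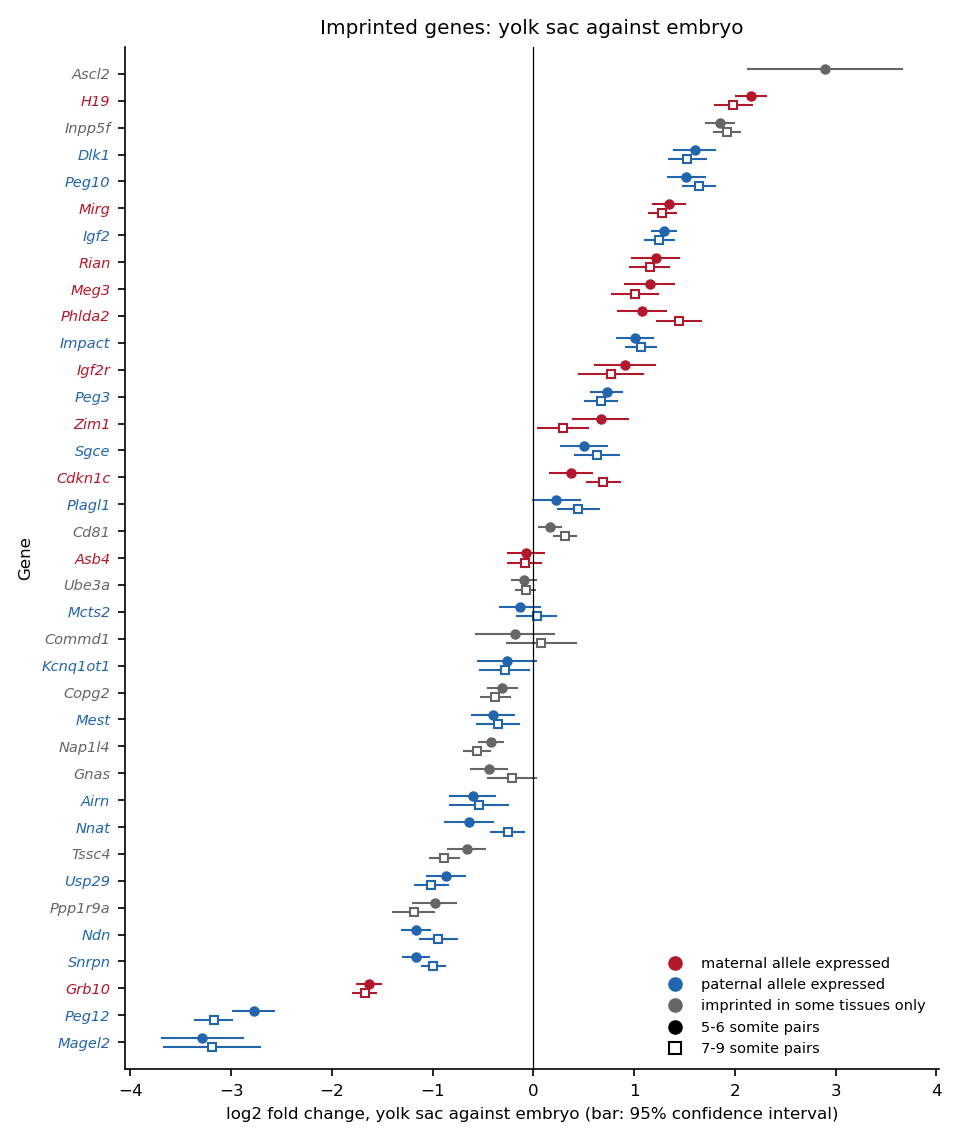
Log2 fold change of each imprinted gene in yolk sacs against embryos (x axis, with its 95% confidence interval) at 5–6 somite pairs (filled circles) and 7–9 somite pairs (open squares), coloured by the expressed parental allele. Ascl2, H19 and Inpp5f stand at the top and Grb10, Peg12 and Magel2 at the bottom, while the intervals of Asb4, Ube3a, Mcts2 and Commd1 include 0 at both stages. Ascl2 was tested at 5–6 somite pairs only.

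H19, a non-coding RNA that hosts miR-675, had the highest level of all members in each of the 8 groups. It lies on chromosome 7 (GRCm38, 142575529–142578143, minus strand) and is read from the maternal chromosome, while Igf2, the fetal growth factor upstream of it (142650766–142666816, minus strand), is read from the paternal chromosome. The group medians of H19 were 3981 to 5188 normalized counts in embryos, with single libraries from 2620 to 11099, and 17713 to 18843 in yolk sacs, with single libraries from 12163 to 31066. At each stage, no embryo reached the level of any yolk sac, and the yolk sac was higher within 34 of 34 and 32 of 32 concepti. The difference was 4.47-fold at 5–6 somite pairs (log2 2.16, SE 0.07, adjusted p = 1.1e-40, edgeR) and 3.96-fold at 7–9 somite pairs (log2 1.99, SE 0.09). H19 alone made up a median of 0.178 to 0.234% of all counts in the groups of embryos and 0.711 to 0.820% in those of yolk sacs, and the 38 members together 0.893 to 0.965% and 1.61 to 1.79%.

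Igf2 was also higher in yolk sacs in every conceptus, although it is expressed from the opposite allele. Its group medians were 851 to 1058 in embryos and 2047 to 2378 in yolk sacs. The libraries ranged from 424 to 1448 and from 1350 to 4882, without overlap at either stage, and the log2 difference was 1.30 and 1.25. Igf2r, the receptor that takes up IGF2 and delivers it to lysosomes for degradation, was higher in yolk sacs as well, by 0.91 and 0.77 on the log2 scale. Airn, the antisense RNA that silences Igf2r on the paternal chromosome, was lower in yolk sacs, by -0.60 and -0.54, with single libraries from 13.5 to 98.4 in embryos and from 6.12 to 119 in yolk sacs. The annotated spans of Airn and Igf2r overlap by 28354 bases on opposite strands, and the strand setting of the counting is not given in the sources used here, so reads from the overlap could fall to either gene. That overlap holds the annotated start of both genes, whereas the libraries were made to read 3′ ends. Igf2 shares 16048 bases with the protein-coding gene Gm49394 on the same strand, and how reads from that overlap were counted is not given either.

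In the Dlk1–Dio3 domain of chromosome 12, genes of both parental alleles were higher in yolk sacs. The promoter sequences of Dlk1 and Meg3 are shown because these neighbours, read from opposite parental chromosomes, were both higher there. Each runs from 250 bases before to 50 bases after the start site in RefSeq, build GRCm38.p6. Capitals mark TGCCGC, the core of the hexamer bound by the imprint-keeping zinc finger protein ZFP57, and TATAAA, the letters of a TATA box, in either orientation.
Dlk1 promoter, chr12:109452573-109452872, plus strand: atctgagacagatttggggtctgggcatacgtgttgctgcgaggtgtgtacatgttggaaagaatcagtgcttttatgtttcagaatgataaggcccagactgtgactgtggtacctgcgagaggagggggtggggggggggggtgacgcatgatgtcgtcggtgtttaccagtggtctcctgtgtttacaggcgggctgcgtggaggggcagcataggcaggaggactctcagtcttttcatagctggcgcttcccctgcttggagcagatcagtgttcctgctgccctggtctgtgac
Meg3 promoter, chr12:109540746-109541045, plus strand: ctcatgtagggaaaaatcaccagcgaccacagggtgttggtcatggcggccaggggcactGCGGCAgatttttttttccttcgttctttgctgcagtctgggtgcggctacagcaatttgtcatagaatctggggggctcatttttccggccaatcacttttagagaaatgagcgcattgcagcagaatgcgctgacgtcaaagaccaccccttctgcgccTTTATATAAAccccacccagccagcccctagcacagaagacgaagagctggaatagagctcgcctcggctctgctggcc
The Meg3 window holds 1 TGCCGC, written as its reverse complement, and TATAAA on both strands within the same run of letters, and 13 CpG dinucleotides. The Dlk1 window holds neither motif and 9 CpG dinucleotides. A match is a run of letters and no evidence of binding.

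Dlk1, a transmembrane protein of the Delta-like family that is paternally expressed, had group medians of 569 to 631 in embryos and 1585 to 1824 in yolk sacs. Its libraries ranged from 187 to 922 and from 586 to 2752, and the log2 difference was 1.60 (SE 0.10) and 1.53 (SE 0.09). The maternally expressed non-coding RNA Meg3, next to H19 in the order of members in all 4 groups of yolk sacs, was higher there by 1.15 and 1.01. Its group medians were 1782 to 2424 in embryos and 3747 to 4625 in yolk sacs. Rian, a host of small nucleolar RNAs, and Mirg, a host of microRNAs, lie downstream of Meg3 on the same strand and were higher by 1.21 and 1.15 and by 1.35 and 1.28, with a higher yolk sac in every conceptus. Rtl1, a retrotransposon-derived gene of placental vessels on the opposite strand of this cluster, had 162 counts in all over 86 libraries and passed the filter in no comparison.

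Among the genes of the Kcnq1 domain of chromosome 7, Phlda2 and Cdkn1c, both maternally expressed brakes on growth, were higher in yolk sacs. Phlda2, a pleckstrin homology protein that limits placental growth, had group medians of 386 to 757 in embryos and 1071 to 1641 in yolk sacs, a log2 difference of 1.08 and 1.44. Cdkn1c, the cyclin-dependent kinase inhibitor p57, differed by 0.38 and 0.69. Kcnq1ot1, the paternal antisense RNA of the domain, was lower in yolk sacs at 7–9 somite pairs (-0.29, adjusted p = 0.0297, edgeR) and stood at -0.26 (adjusted p = 0.0915, edgeR) at 5–6 somite pairs. The former call was lost without the filter on low counts, at an adjusted p of 0.0559.

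Ascl2, a basic helix-loop-helix factor of the ectoplacental cone, gave the largest excess in yolk sacs of any member, 7.43-fold at 5–6 somite pairs (log2 2.89, SE 0.38), but from few and uneven counts. Its lowest, median and highest levels in yolk sacs of that stage were 1.17, 14.8 and 230.1 in normal and 1.06, 49.9 and 319 in diabetic pregnancies, against 2.31, 7.66 and 16.6 and 3.42, 6.06 and 15 in the embryos. The groups overlapped, and the yolk sac was the higher tissue in 23 of 34 concepti. Trophoblast markers were uneven in the same way, with a lowest, median and highest sum of 141, 223 and 1195 in normal and 28.5, 364 and 1773 in diabetic yolk sacs of that stage, and their part in the level of Ascl2 was not tested for this comparison. At 7–9 somite pairs Ascl2 failed the filter and was not tested in the main fit. The yolk sac was then higher in 16 of 32 concepti, and DESeq2 and edgeR without the filter called Ascl2 higher in yolk sacs. Of the other members of the domain, the tetraspanin Cd81 was higher in yolk sacs (0.16 and 0.31), and the splicing factor Tssc4 (-0.66 and -0.88) and the nucleosome assembly protein Nap1l4 (-0.42 and -0.56) were lower.

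Grb10, an adaptor that dampens insulin and IGF signalling, was the only maternally expressed member called lower in yolk sacs. It ranked 2 or 3 among the members in embryos, with group medians of 1728 to 2160, and stood at 520.2 to 645 in yolk sacs. Every embryo of a stage lay above every yolk sac of that stage, and the yolk sac level was 3.1-fold lower at 5–6 somite pairs (log2 -1.63, SE 0.06, adjusted p = 1.3e-38, edgeR) and 3.2-fold lower at 7–9 somite pairs (log2 -1.68).

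The genes around Peg10 on chromosome 6 differed among themselves. Peg10, a paternally expressed retrotransposon-derived gene needed for the placenta, was higher in yolk sacs by 1.52 and 1.64, with group medians of 347 to 413 in embryos and 1017 to 1249 in yolk sacs. Its head-to-head neighbour Sgce, epsilon-sarcoglycan, was higher by 0.50 and 0.63. Ppp1r9a, the actin-binding protein neurabin, was lower by -0.98 and -1.19. Asb4, a maternally expressed ankyrin repeat and SOCS box protein, was not called (-0.07, 95% interval -0.25 to 0.11, and -0.09, -0.25 to 0.07). In the Mest domain, farther along the same chromosome, Mest, of the alpha/beta hydrolase fold, and the coatomer subunit Copg2 were both lower in yolk sacs, by -0.40 and -0.35 and by -0.31 and -0.38. These genes overlap tail to tail by 912 bases, which hold the annotated 3′ ends of both. With the strand setting not given, reads of either could have been counted for the other.

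In the Peg3 domain of chromosome 7, the zinc finger gene Peg3 was higher in yolk sacs (0.73 and 0.67), as was the maternally expressed zinc finger gene Zim1 (0.67 and 0.29). Usp29, of the ubiquitin-specific protease family, starts beside Peg3 on the opposite strand and is read from the same allele, and it was lower (-0.87 and -1.01). The group medians of Usp29 were 108 to 138 in embryos and 53.8 to 66.9 in yolk sacs, and those of Peg3 1078 to 1431 and 1779 to 2034.

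The paternally expressed genes of the Snrpn domain, the counterpart of the human Prader-Willi region, were all lower in yolk sacs. Promoters of 3 neighbours at its distal end are shown because all of them were lower in yolk sacs at both stages, with the same source, window and capitals as above.
Ndn promoter, chr7:62348027-62348326, plus strand: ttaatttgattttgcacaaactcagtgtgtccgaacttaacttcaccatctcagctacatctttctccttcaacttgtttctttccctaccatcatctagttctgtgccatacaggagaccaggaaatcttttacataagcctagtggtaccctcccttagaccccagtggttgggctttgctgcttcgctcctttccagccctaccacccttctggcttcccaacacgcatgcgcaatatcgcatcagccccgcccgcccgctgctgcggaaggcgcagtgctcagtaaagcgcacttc
Magel2 promoter, chr7:62376729-62377028, plus strand: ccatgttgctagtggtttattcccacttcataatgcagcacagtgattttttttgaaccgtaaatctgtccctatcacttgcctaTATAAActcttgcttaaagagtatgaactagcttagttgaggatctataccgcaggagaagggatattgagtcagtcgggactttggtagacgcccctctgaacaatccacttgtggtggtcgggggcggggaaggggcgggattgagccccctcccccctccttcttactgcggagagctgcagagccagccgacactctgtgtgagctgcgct
Peg12 promoter, chr7:62464461-62464760, minus strand: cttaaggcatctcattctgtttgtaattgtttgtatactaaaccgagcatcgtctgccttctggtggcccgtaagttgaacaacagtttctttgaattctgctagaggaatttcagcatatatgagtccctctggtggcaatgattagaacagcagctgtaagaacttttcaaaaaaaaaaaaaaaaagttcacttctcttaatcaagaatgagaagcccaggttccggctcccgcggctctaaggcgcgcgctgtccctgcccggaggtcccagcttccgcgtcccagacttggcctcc
Magel2 has 1 TATAAA, and neither motif is in the windows of Ndn and Peg12. The windows hold 11, 10 and 12 CpG dinucleotides, and that of Ndn begins inside the span GENCODE gives for the gene (62346569–62350262), since the annotations place the start differently.

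Magel2, of the MAGE family, had group medians of 18.6 to 41.8 in embryos and 2.23 to 3.76 in yolk sacs, and was 9.76-fold and 9.11-fold lower there (log2 -3.29, SE 0.20, and -3.19, SE 0.24). Peg12, of the Frat family, had group medians of 114 to 137 and 14 to 19.7, 6.85-fold and 9.02-fold lower in yolk sacs, and its embryos and yolk sacs did not overlap at either stage. Ndn, the MAGE family protein necdin, was lower by -1.16 and -0.94 on the log2 scale, and Snrpn, a component of the splicing machinery, by -1.16 and -0.99. The embryo was higher for Ndn, Snrpn and Peg12 in all 34 earlier and all 32 later concepti, and for Magel2 in 34 of 34 and 31 of 32 of them. Ube3a, the ubiquitin ligase at the proximal end whose imprint is restricted to neurons, was not called at either stage (-0.09 and -0.08), with group medians of 789.6 to 935 and 748 to 787.

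Among members that lie outside these clusters, Inpp5f, an inositol polyphosphate phosphatase, stood apart most between the tissues. Its group medians were 55.5 to 63.8 in embryos and 207 to 218 in yolk sacs, without overlap (1.85 and 1.92). Impact, an inhibitor of the stress kinase GCN2, was higher in the yolk sac of every conceptus (1.01 and 1.07). Plagl1, the zinc finger transcription factor Zac1, was higher in yolk sacs at 7–9 somite pairs (0.45) and at 0.23 (adjusted p = 0.0737, edgeR) at 5–6. Neuronatin (Nnat) was lower in yolk sacs (-0.64 and -0.26), as was Gnas, the alpha subunit of the stimulatory G protein, at 5–6 somite pairs (-0.44). Gnas at the later stage (-0.21), the retrogene Mcts2 (-0.13 and 0.03) and Commd1, the host gene of Zrsr1 (-0.18 and 0.08), were not called.

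At 5–6 somite pairs, 7 members had no embryo within the range of the yolk sacs: H19, Igf2 and Inpp5f all higher, and Grb10, Ndn, Magel2 and Peg12 all lower. At 7–9 somite pairs there were 8: H19, Igf2, Mirg, Peg10 and Inpp5f higher, and Grb10, Snrpn and Peg12 lower. Of all genes tested, 12.9% (6.91% higher, 5.98% lower) and 14.4% (7.74% higher, 6.67% lower) had groups without overlap. A change of the tissue difference with stage was called for none of 37 members (edgeR, adjusted p under 0.05), against 3.14% of all genes. An unadjusted p under 0.05 was found for 7 members and for 16.7% of all genes.

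Few imprinted genes were called between diabetic and normal pregnancies. In embryos with 5–6 somite pairs none of 36 members was called (edgeR), against 1.46% of all genes, and 10 of 36 had an unadjusted p under 0.05, against 21% of all genes. DESeq2 called 1, against 2.94% of all genes. In embryos with 7–9 somite pairs 2 of 36 were called, H19 higher and Sgce lower, against 9.09% of all genes (5.2% higher, 3.89% lower), and DESeq2 called 3, against 8.19%. There 13 of 36 had an unadjusted p under 0.05, against 27.4% of all genes. By edgeR, the share of members called was thus not above that of genes at large at either stage.

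At 5–6 somite pairs the gene nearest to a call was Rian, the snoRNA host of the Dlk1–Dio3 domain. Its lowest, median and highest levels were 58.4, 167 and 277 in 17 normal and 123, 267 and 442 in 17 diabetic embryos. The groups overlapped, and the diabetic median lay near the highest normal level. The log2 difference was 0.66 (SE 0.19, 95% interval 0.28 to 1.04, adjusted p = 0.0573, edgeR). It was called by DESeq2 (adjusted p = 0.0309), without the filter (0.0465), with the 2-digit title number as a covariate (0.0495) and when any of 6 single litters was left out (D23M11, D24M15, D28M37, N23M31, N24M21 or N28M07), but not when litters were a random block (0.201) or their counts were added up (0.415). By litter means, 7 of 9 diabetic litters exceeded the normal median (exact permutation test over all 92378 splits, p = 0.0413, unadjusted). The same test was run for each member tested, and its unadjusted p was smaller for Copg2 (0.0175), Ube3a (0.0230) and Nnat (0.0349) than for Rian. Its neighbours on the same strand stood at 0.27 (Meg3) and 0.15 (Mirg), neither called.

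H19 was higher in diabetic embryos with 7–9 somite pairs. Its lowest, median and highest levels were 2711, 3982 and 5542 in 16 normal embryos (mean 4138 ± 797, SD) and 3531, 5188 and 11099 in 16 diabetic embryos (mean 5727 ± 1969, SD), so that the groups overlapped over most of the normal range. The log2 difference was 0.46 (SE 0.13, 95% interval 0.21 to 0.72), or 1.38-fold, at an adjusted p of 0.0197 (edgeR). All 6 diabetic litters exceeded the median of 7 normal ones (exact permutation test over 1716 splits, p = 0.0035, unadjusted). The highest of these embryos was D28M36C, and without that conceptus the difference was 0.38 (adjusted p = 0.0363, edgeR). The call was lost when litters were a random block (adjusted p = 0.0838), when their counts were added up (0.0935) and without the normal litter N28M05 (0.0730).

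H19 is itself far more abundant in yolk sacs, and the summed visceral endoderm markers reached 3362 in a diabetic embryo of this stage against 1450 in the highest normal embryo. With these markers as a covariate, the H19 difference was 0.41 (adjusted p = 0.0068, edgeR). Primitive erythroid markers summed to 19.3 to 1577 (median 187) in these normal embryos and 36.7 to 4633 (median 230.3) in the diabetic ones. None of the 3 of them tested was called (median log2 difference 1.23, edgeR), and their part in the H19 difference was not tested. Igf2, the neighbour of H19, stood at 0.01 (95% interval -0.18 to 0.21), and its levels in normal and diabetic embryos were 700.2, 1058 and 1340 and 639, 978 and 1448.

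Sgce was lower in diabetic embryos with 7–9 somite pairs. Its lowest, median and highest levels were 36.8, 47.5 and 72.9 in normal and 12.7, 37.5 and 52.3 in diabetic embryos, and the groups overlapped. The log2 difference was -0.52 (SE 0.14, 95% interval -0.80 to -0.24, adjusted p = 0.016, edgeR). None of the 6 diabetic litters lay above the normal median (exact permutation test, p = 0.0035, unadjusted), and the adjusted p was 0.0731 when litters were a random block and 0.128 when their counts were added up. Besides H19 and Sgce, the exact permutation test gave an unadjusted p under 0.05 at this stage for Grb10 (0.0198), Peg3 (0.0291), Nnat (0.0443), Magel2 (0.0449) and Kcnq1ot1 (0.0455). Peg10, which starts beside Sgce on the other strand and is also paternally expressed, stood at 0.08 (95% interval -0.11 to 0.26). Just short of a call at this stage were Magel2 (-0.85, adjusted p = 0.0508, edgeR) and Kcnq1ot1 (-0.33, adjusted p = 0.0515, edgeR; 0.0470 by DESeq2).

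**Figure D2:**
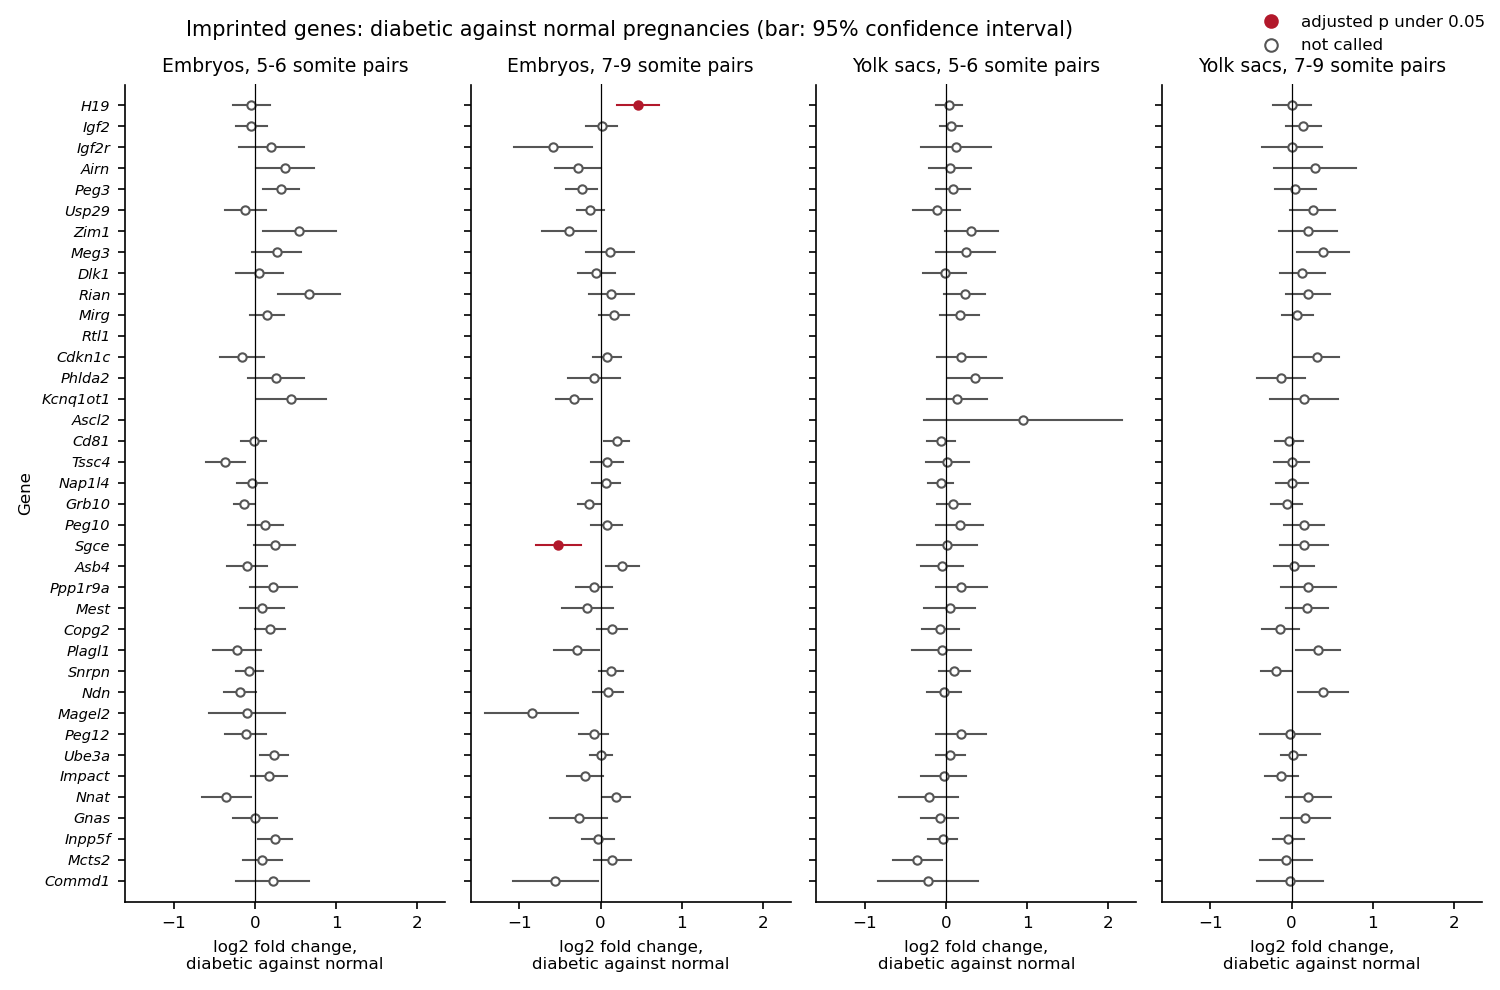
Log2 fold change of each imprinted gene in diabetic against normal pregnancies (x axis, with its 95% confidence interval) in embryos and yolk sacs of both stages, 1 panel each, with called genes in red. The only red points are H19 and Sgce in embryos with 7–9 somite pairs, and most intervals include 0.

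In yolk sacs no member was called. At 5–6 somite pairs 2 of 36 had an unadjusted p under 0.05 (Phlda2, 0.36, and Mcts2, -0.36), and at 7–9 somite pairs 5 of 35 (Plagl1 0.32, Meg3 0.39, Ndn 0.39, Cdkn1c 0.31 and Snrpn -0.19), against 8.42% and 10.9% of all genes. DESeq2 called none of the members either. Over all genes, edgeR called 0% and 0.0194%, and DESeq2 0.0255% and 0.258%. By litter means, the exact permutation test gave no member an unadjusted p under 0.05 at 5–6 somite pairs. At 7–9 it did so for Usp29 (0.0309), Meg3 (0.0338), Peg10 (0.0396) and Plagl1 (0.0414), all higher in diabetic yolk sacs. That test was not run over all genes. H19 in yolk sacs stood at 0.03 (95% interval -0.13 to 0.19) and 0.00 (-0.23 to 0.24), where the highest yolk sac, at 31066, was again D28M36C. A change of the diabetes effect between the tissues was called for no member (edgeR), against 0% of all genes with 5–6 somite pairs and 0.389% with 7–9. An unadjusted p under 0.05 was found for 4 and 8 members, against 7.66% and 17.7% of all genes.

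In embryos, the difference between diabetic and normal pregnancies changed with stage for 6 of 36 members, against 8.7% of all genes (4.35% in each direction). With the change written as the later minus the earlier difference, it was 0.53 for H19 (adjusted p = 0.0446), 0.56 for Nnat (0.04), -0.54 for Peg3 (0.0204), -0.92 for Zim1 (0.0331), -0.75 for Sgce (0.0104) and -0.76 for Kcnq1ot1 (0.0442), all by the interaction term in edgeR. Another 9 had an unadjusted p under 0.05, a level reached by 28.1% of all genes, called ones included. In yolk sacs the same test called none of 36 (edgeR), against 0% of all genes, with 3 at an unadjusted p under 0.05, against 5.84%.

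For Peg3, the median was higher at the later stage in normal embryos and lower in diabetic ones. Its lowest, median and highest levels were 656, 1078 and 1607 in normal and 847, 1334 and 1745 in diabetic embryos at 5–6 somite pairs, and 835, 1431 and 1874 and 891, 1254 and 1439 at 7–9. Diabetic embryos thus stood 0.32 above normal ones at the earlier stage and -0.23 relative to them at the later stage, neither called on its own. Zim1, next to Peg3 but read from the other allele, moved likewise from 0.55 to -0.39.

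Kcnq1ot1 went from 0.45 to -0.33, and its earlier diabetic embryos were the most spread group, at 202, 755 and 2432 against 223, 625 and 957 in normal embryos. By litter means its earlier difference was only 0.09 (exact permutation test, p = 0.776, unadjusted), with 5 of 9 diabetic litters above the normal median. Nnat went the other way, from -0.35 to 0.19, with levels of 732, 1072 and 1526 in normal and 166, 956 and 1257 in diabetic embryos at 5–6 somite pairs. Without D28M36C the change with stage was no longer called for H19 (adjusted p = 0.0806, edgeR), Nnat (0.0598) and Kcnq1ot1 (0.0558), and without the filter on low counts it was called for Peg3 and Sgce and not for the other 4. Kcnq1ot1 was also lost with the visceral endoderm markers as a covariate, and without litter D24M15 so were Kcnq1ot1 and Nnat. With litter as a random block, Kcnq1ot1 (0.188) and Zim1 (0.0529) lost the call and Igf2r, Tssc4 and Commd1 gained it.

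**Figure D3:**
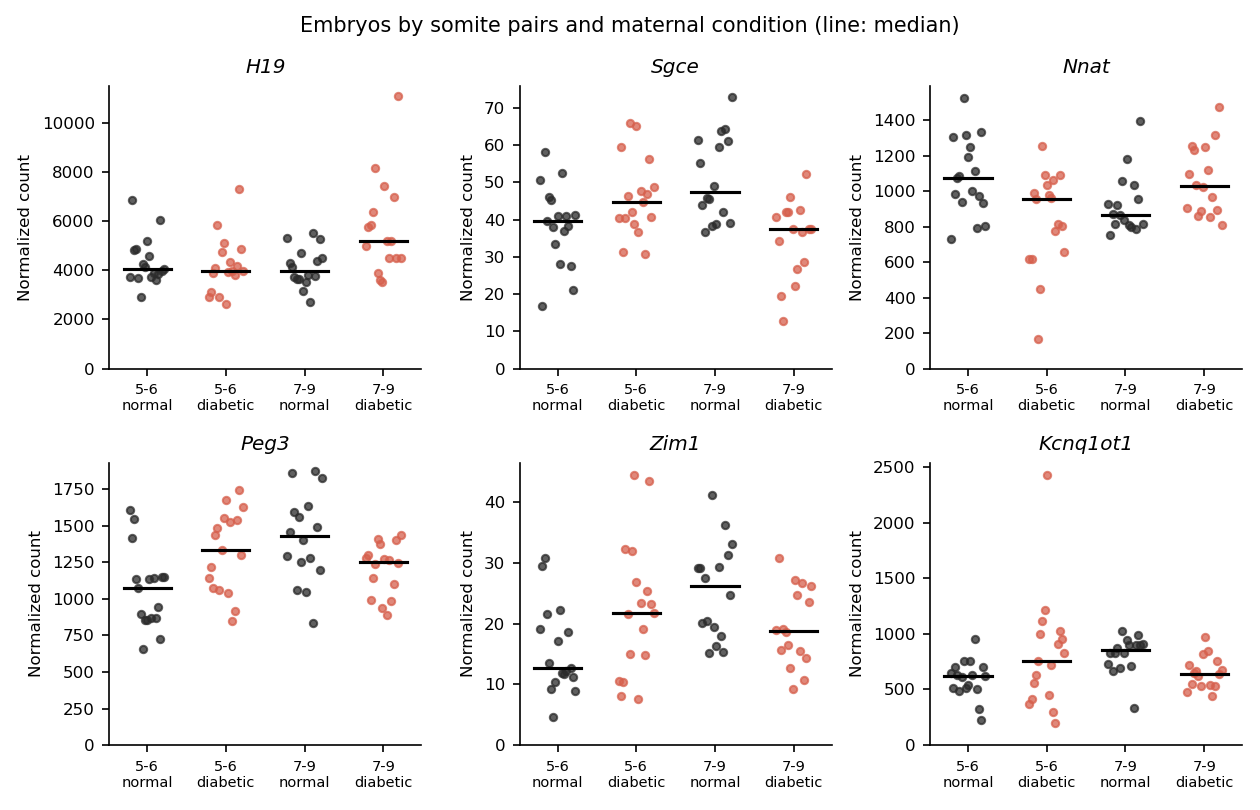
Normalized counts (y axis) of the 6 imprinted genes whose diabetes effect changed with stage, in each embryo of the 4 groups by somite pairs and maternal condition (x axis), with the median as a line. All groups overlap, and the diabetic median lies above the normal median at 1 stage and below it at the other for each gene.

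From 5–6 to 7–9 somite pairs, imprinted genes changed about as often as genes at large. In embryos 7 members rose and 4 fell of 36, against 30.1% of all genes (14.3% higher, 15.8% lower), and in yolk sacs 10 rose and 6 fell of 36, against 40.4% (20.7% higher, 19.7% lower). There were 9 members called in the same direction in both tissues: Igf2, Cdkn1c, Cd81, Nap1l4, Plagl1 and Ndn rose, and Phlda2, Grb10 and Copg2 fell.

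Plagl1 and Ndn rose most among the members called in both tissues. Plagl1, the transcription factor Zac1, rose by 0.53 in embryos (SE 0.10) and 0.76 in yolk sacs (SE 0.12). Its mean by somite number was 134, 163, 188, 201 and 237 normalized counts in embryos with 5, 6, 7, 8 and 9 somite pairs (n = 24, 10, 11, 13 and 8), a rise at each step, with overlapping spreads. Ndn rose by 0.52 and 0.76 (adjusted p = 3.2e-08 and 3.0e-09, edgeR), with means of 117, 135, 184, 171 and 168 in embryos, so that the largest step lay between 6 and 7 somite pairs. Markers of other cell types rose with stage as well. In yolk sacs 8 of 10 visceral endoderm markers rose and 1 fell (median 0.58), and 4 of 5 primitive erythroid markers rose (median 0.79). In embryos all 3 erythroid markers tested rose (median 4.25), with group medians of their sum from 35.4 and 41.4 to 187 and 230.3. Their part in the rise of members was not tested.

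Phlda2 fell most among the members called in both tissues. It fell by 0.91 on the log2 scale in embryos (SE 0.12, adjusted p = 4.2e-08, edgeR) and fell by 0.52 in yolk sacs (SE 0.12). Its means in embryos with 5 to 9 somite pairs were 806, 659, 424, 387 and 411. In normal embryos the lowest, median and highest levels were 328, 650.3 and 1397 with 5–6 somite pairs and 271, 409.9 and 534 with 7–9, and in diabetic embryos 471, 757 and 1557 and 89.3, 386 and 736. Igf2, the growth factor, rose by 0.28 and 0.25, and Grb10, which dampens its signal, changed by -0.20 and -0.22. Cdkn1c rose by 0.21 and 0.55. Copg2 fell (-0.24 and -0.30), and Cd81 (0.18 and 0.34) and Nap1l4 (0.27 and 0.15) rose.

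**Figure D4:**
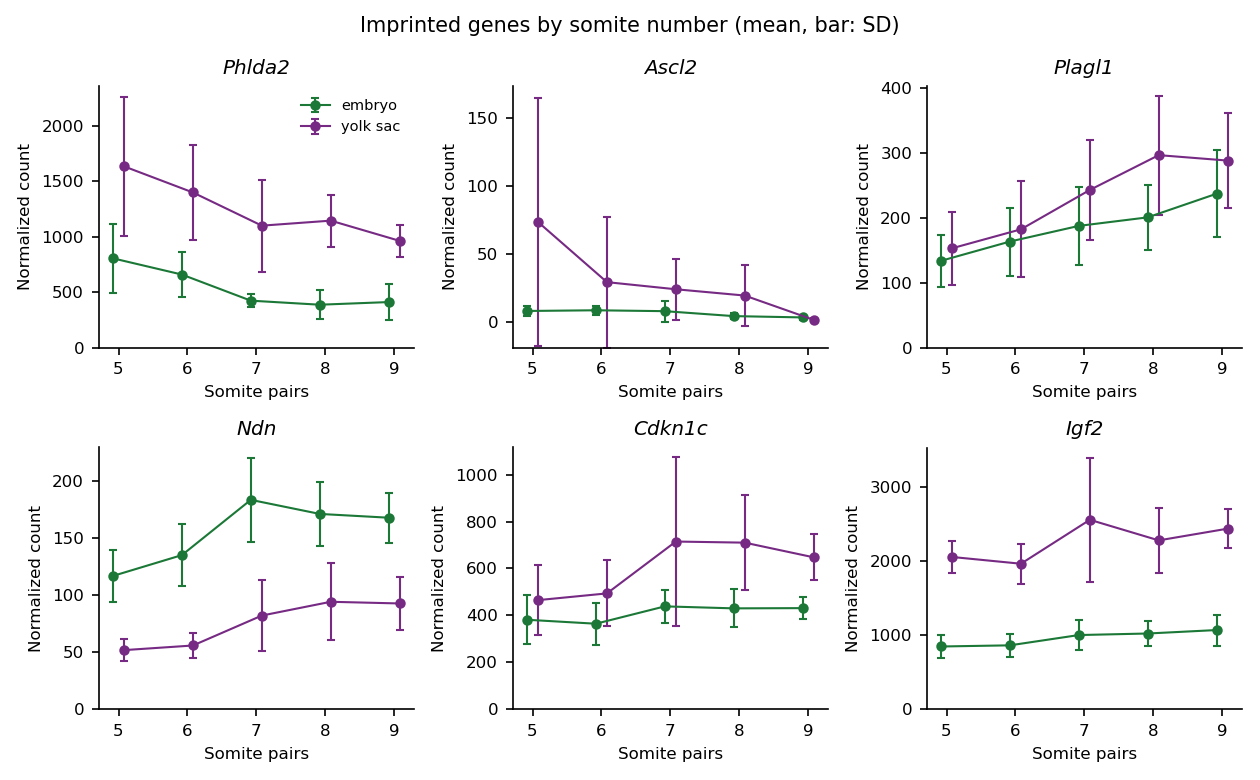
Mean normalized count with its SD (y axis) of 6 imprinted genes in embryos and yolk sacs with 5, 6, 7, 8 or 9 somite pairs (x axis), over both maternal conditions. Phlda2 falls and Plagl1 and Ndn rise in both tissues, while Ascl2 falls in yolk sacs from a mean of 73.4 at 5 to 1.26 at 9 somite pairs with an SD as wide as the mean at the start.

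In embryos alone, Tssc4 rose (0.21) and Impact fell (-0.22). In yolk sacs alone, Nnat (0.46), Gnas (0.40), Commd1 (0.52) and Mest (0.28) rose, and Rian (-0.26), Peg12 (-0.30) and Ascl2 (-1.75, adjusted p = 0.00149, edgeR) fell, although no member's change differed between the tissues by its own test. The summed level of trophoblast markers was lower at the later stage too, with group medians of 223 and 364 and then 144 and 164 (1 of 3 tested was called, lower), and with these markers as a covariate Ascl2 fell by 0.999 (adjusted p = 0.0113) and Phlda2 by 0.29 (adjusted p = 0.0019, edgeR), while the call of Mest was lost and Meg3 gained one. Without litter D24M15 the embryo calls of Cdkn1c, Tssc4 and Impact and the yolk sac calls of Nap1l4, Mest, Copg2 and Peg12 were lost. Without D28M36C the embryo call of Impact was lost, and Meg3 gained a call in yolk sacs. With visceral endoderm markers as a covariate, 15 members were called in embryos in place of 11, as H19, Usp29, Dlk1 and Ascl2 gained a call. With litter as a random block Tssc4 and Impact lost the call in embryos, where Usp29 and Zim1 gained it, and Nap1l4 lost it in yolk sacs. Without the filter on low counts Cdkn1c, Tssc4 and Impact were lost in embryos and Nap1l4, Mest and Peg12 in yolk sacs.

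For Nnat, the level in the embryo went with the level in the yolk sac of the same conceptus at 5–6 somite pairs. Over 34 concepti, as deviations from the group mean of log2(normalized count + 1), Pearson's r was 0.700 (permutation p = 1e-05, the smallest that 100000 resamples can give, adjusted p = 7.0e-04 over 70 tests) and Spearman's rho was 0.671 (adjusted p = 0.0028), and r was 0.682 without the 2 concepti farthest from the median. At 7–9 somite pairs r was 0.0311 and rho -0.172 over 32 concepti. Littermates share a dam, and as deviations from litter means r was 0.424 (n = 25, permutation p = 0.0337, adjusted p = 0.299). Such deviations are tied to each other within a litter but were shuffled freely, so this p-value is likely too small. No other member had an adjusted p under 0.05 for r, and by rho Nap1l4 at 5–6 somite pairs did (rho = 0.541, r = 0.416, adjusted p of rho 0.0350; rho was 0.282 and not called on CPM, where counts are scaled by the library total in place of size factors).

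**Figure D5:**
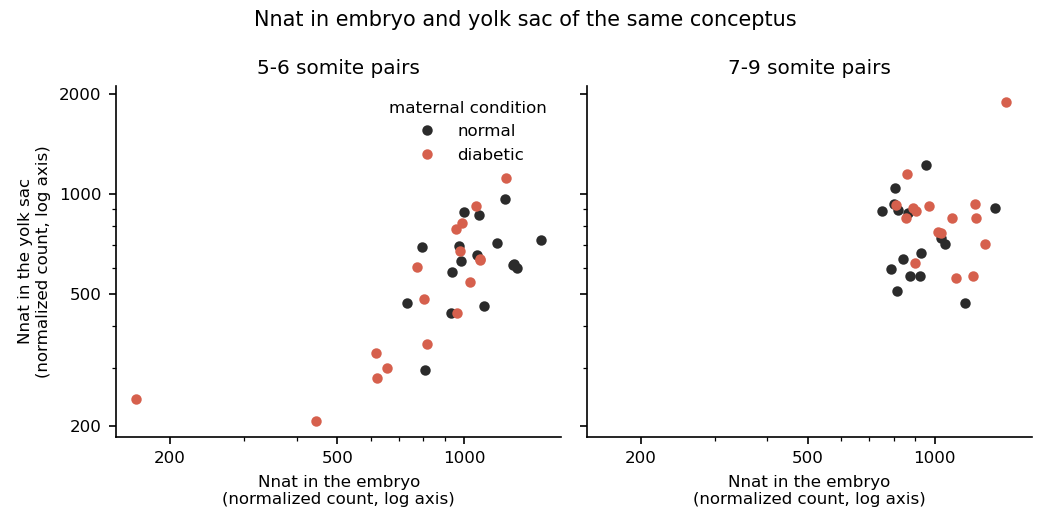
Level of Nnat in the yolk sac (y axis) against that in the embryo (x axis) of the same conceptus, as normalized counts on log axes, at 5–6 (left) and 7–9 somite pairs (right), coloured by maternal condition. At 5–6 somite pairs the concepti with the lowest embryo levels, down to 166, are diabetic ones and also have low yolk sacs, and no such trend is seen at 7–9.

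Of 8 pairs of neighbouring imprinted genes, tested in both tissues at both stages, 12 of 32 correlations across concepti had an adjusted p under 0.05 (permutation test of r). H19 and Igf2, which are read from opposite alleles, were positively related in embryos and negatively in yolk sacs at 5–6 somite pairs. In embryos r was 0.530 (n = 34, permutation p = 0.0015, adjusted p = 0.0122), rho was 0.530 (adjusted p = 0.0162), and r was 0.506 without the 2 libraries farthest from the median. In yolk sacs r was -0.633 (permutation p = 1.2e-04, adjusted p = 0.0038), rho was -0.456 (adjusted p = 0.0353), and r was -0.460 without 2. The yolk sac call was lost on CPM, at r = -0.393 (adjusted p = 0.0632) and rho = -0.209 (adjusted p = 0.436), and r was -0.0951 without 2, whereas in embryos r was 0.564 on that scale. At 7–9 somite pairs r was 0.154 and 0.269, and neither was called.

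Meg3 and Rian, non-coding RNAs read in the same direction from the maternal chromosome, had r between 0.458 and 0.558 in all 4 sets (permutation p from 0.0023 to 0.0082, adjusted p from 0.0123 to 0.0263). By rho, only yolk sacs with 5–6 somite pairs passed (rho = 0.467, adjusted p = 0.0311), and r fell to between 0.301 and 0.409 without the 2 farthest libraries. As deviations from litter means, r in embryos with 5–6 somite pairs was -0.0727 (rho -0.0854) and was not called. On CPM, the call in embryos with 7–9 was lost (r = 0.405, adjusted p = 0.0632). The other correlations called were those of Peg3 with Usp29 in 3 sets, positive, of Dlk1 with Meg3 and of Peg10 with Sgce in yolk sacs with 5–6 somite pairs, the former positive and the latter negative, and of Mest with Copg2 in embryos with 7–9 somite pairs, negative. Litter and library composition are shared by both genes of a pair. Deviations from litter means are tied to each other within a litter but were shuffled freely, so their p-values are likely too small. With them 11 of the 32 were called by r and 2 by rho, and 8 of the 11 were among the 12. Lost were Meg3 with Rian and Peg3 with Usp29 in embryos and Peg3 with Usp29 in yolk sacs, all at 5–6 somite pairs, and Mest with Copg2. For H19 and Igf2 at 5–6 somite pairs, r was 0.571 in embryos and -0.604 in yolk sacs, but rho was 0.392 (adjusted p = 0.120) and -0.311 (adjusted p = 0.245), and yolk sacs with 7–9 gained a positive call by r (0.499, adjusted p = 0.0203; rho = 0.302). On CPM 9 were called by r, 8 of them among the 12, with Peg10 and Sgce and Mest and Copg2 also lost.

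Promoters were listed in RefSeq for 31 members. TGCCGC was in a promoter of 11 of the 31, on either strand, against 13.1% of 27025 genes, and TATAAA in 8 of the 31 against 15.7%. The median number of CpG dinucleotides was 15 in 47 promoters of members and 7 in 32851 promoters of all genes. Members thus had more promoters per gene and more CpG, each of which leaves more places for TGCCGC to match. Neither was corrected for.

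Of a list of 37 other imprinted genes, 21 of 23 tested differed between the tissues at 5–6 somite pairs (10 higher in yolk sacs, 11 lower) and 22 of 23 at 7–9 (10 higher, 12 lower), against 79.3% and 81.1% of all genes. The largest differences were those of Sfmbt2, a Polycomb protein gene that hosts a microRNA cluster (4.64 and 4.32), the organic cation transporters Slc22a2 (4.44 and 5.21) and Slc22a18 (3.13 and 3.47), and the thyroid hormone deiodinase Dio3 (2.44 and 2.79), all on the log2 scale. None of this list was called between diabetic and normal pregnancies in either tissue or stage (edgeR), with 6, 3, 1 and 2 at an unadjusted p under 0.05 in embryos and then yolk sacs, against 21%, 27.4%, 8.42% and 10.9% of all genes. With stage, 7 of 21 were called in embryos and 5 of 21 in yolk sacs (30.1% and 40.4% of all genes), where Slc22a2 (1.02) and Slc22a18 (0.83) rose and Slc38a4 (-0.60) and Peg13 (-0.47) fell.

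Of 18 factors that set or keep imprints, 8 of 16 tested differed between the tissues at 5–6 somite pairs, 2 higher and 6 lower in yolk sacs, and 12 of 15 at 7–9, 2 higher and 10 lower, against the same 79.3% and 81.1% of all genes. Dnmt3l, the cofactor of germ-line methylation, was higher at the earlier stage (4.95), and Trim28, the corepressor that ZFP57 recruits (-1.03 at 7–9), Ctcf, the insulator protein of the Igf2–H19 control region (-0.64 and -0.89), Uhrf1, which brings the maintenance methyltransferase to replicated DNA (-0.62 at 5–6), and Dnmt1, that enzyme itself (-0.93 at 7–9), were lower. Between diabetic and normal pregnancies, only the demethylating dioxygenase Tet3 in embryos with 7–9 somite pairs was called (-0.40, adjusted p = 0.0424, edgeR). That was 1 of 15 tested, against 9.09% of all genes. An unadjusted p under 0.05 (edgeR) was found for 8 of 15 and 4 of 15 in embryos and 1 of 16 and 3 of 15 in yolk sacs. The shares of all genes were 21%, 27.4%, 8.42% and 10.9%. With stage 8 of 16 fell in yolk sacs, Dnmt3l most (-1.27), against 19.7% of all genes.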

How the data were processed

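From total RNA of embryos and yolk sacs, QuantSeq 3′ FWD libraries were made, in which unique molecular identifiers (UMIs, random tags) let copies of 1 molecule be counted once. The deposited values are counts of molecules per gene without normalization. For the tables the authors made, the submitters' processing notes name STAR, HTSeq and the build mm10. How UMIs were collapsed, program versions, the annotation and the strand setting are not given in the sources used here. Genes overlapping on opposite strands are therefore uncertain where reads of 1 could have been counted for the other, as for Igf2r and Airn, Mest and Copg2, Kcnq1ot1 and Kcnq1, and Nnat and Blcap. A gene on the same strand overlaps 8 members, small RNA genes and pseudogenes left out. Among them are Igf2 with Gm49394, Commd1 with Gm28048, Snrpn with Snurf and Mcts2 with H13. How reads shared by both genes were counted is not given, so the levels of these members are uncertain too. Of 26051 genes without a deposited symbol, 25646 were named through GENCODE M21 (GRCm38).

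Groups follow the tissue, somite number and maternal condition in the labels. The 4 batch-control duplicates were left out, and they differed from their originals by a median of 0.0486 to 0.108 on the log2 scale over the members. Genes were tested over the whole table with edgeR 4.0.16 (TMM, glmQLFit and glmQLFTest, filterByExpr with a minimum count of 10) under R 4.3.3, and a gene was called at a Benjamini-Hochberg adjusted p under 0.05. Tissue and stage fits had the maternal condition as a covariate, and changes of a difference were interaction terms. All tests are two-sided, and SEs and intervals of 95% are those of the log2 fold change. Correlations used 100000 permutations and a pseudocount of 1 on the log2 scale, and litter means were compared over all splits of the litters. Alternatives were DESeq2 1.42.0, its size factors in edgeR, no filter, limma 3.58.1 with litter as a random block, the conceptus as a replicate block, covariates, sums per litter and leaving out single litters. The scripts were tested on simulated data. Levels used SciPy 1.17.1 and pandas 2.3.3 under Python 3.11.15.

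All 38 members are named, and at most 4 genes of any other list in a comparison, those called with the largest log2 fold change. The members, lists and tests were chosen with earlier results of these data known. Alternatives with cell type markers as a covariate, without conceptus D28M36C and, for the change with stage, without litter D24M15 were added after seeing the data. Embryo and yolk sac with the same label come from the same conceptus and so are paired. The 2 labels of sex within a conceptus disagreed in 2 concepti, and sex was used only as a covariate in an alternative.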

Additional observations from a re-analysis of the deposited data

Results flagged for a closer look

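In embryos, the difference between diabetic and normal pregnancies changed from 5–6 to 7–9 somite pairs for 6 imprinted genes, by the interaction term of stage and condition in edgeR, and each is listed here because its effect differed between the stages. On the log2 scale, the change (later minus earlier difference) was 0.53 for H19, 0.56 for Nnat, -0.54 for Peg3, -0.92 for Zim1, -0.75 for Sgce and -0.76 for Kcnq1ot1. Adjusted p-values were 0.0446, 0.0400, 0.0204, 0.0331, 0.0104 and 0.0442. Of all genes tested, 8.7% were called by the same test. Peg3 and Sgce kept the call without conceptus D28M36C, without the filter on low counts and with litter as a random block.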

How the results depend on the processing

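No imprinted gene changed direction under any alternative in which it was called, and of the values of single genes under alternatives 910 stayed on their side of the threshold, 44 gained a call and 39 lost it. These counts cover only genes called under some setting of a comparison. They take the permutation test of litter means at its unadjusted p, so some of the gains are not calls by adjusted p. In embryos with 5–6 somite pairs, where edgeR called none of the members between diabetic and normal pregnancies, DESeq2 called 1, edgeR without the filter 1 and with the title number as a covariate 1 (Rian each time), and leaving out single litters gave 0 to 4. In embryos with 7–9 somite pairs, where 2 were called, litter as a random block left 0, counts summed per litter 0 and the title number as a covariate 5, and leaving out single litters gave 1 to 4. Of the 6 changes with stage in embryos, 2 were left without the filter and 3 without D28M36C. Correlations between embryo and yolk sac gave 3 calls as deviations from litter means (Igf2, Nap1l4 and Commd1 at 5–6 somite pairs) in place of 1, by permutations that took littermates' deviations as independent. The cause of these differences was not tested. With the conceptus as a replicate block, which pairs embryo and yolk sac, 31 members were called between the tissues at 5–6 and 31 at 7–9 somite pairs, and no call changed. For the maternal condition no pairing exists, since the conditions have no dam in common. Of 304 group levels, 7 moved by more than 1 SD with size factors estimated within the tissue and stage, and 2 with library totals. Depth limited Rtl1, Magel2 and Ascl2, which held few counts in some groups, and p-values over concepti treat littermates as independent.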
